A study of Drosophila melanogaster with 2 samples.

Results

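The cytoskeleton and the ribosome draw on small families of related genes. This account follows CG12299 binding at 10 genes, named individually for this purpose among 18277 annotated Drosophila melanogaster genes. They encode 4 actins, an alpha tubulin, a pair of beta tubulins, a pair of copies of elongation factor 1 alpha, and elongation factor 2. A total of 6 were listed as broadly expressed copies (Act5C, Act42A, alphaTub84B, betaTub56D, eEF1alpha1 and eEF2) and 4 as tissue-limited copies (Act57B, Act87E, betaTub60D and eEF1alpha2). A peak was counted for a gene when its summit lay inside the gene or within 2000 bp of any of its annotated transcription start sites (TSSs). ChIP-seq was carried out on whole embryos aged 0 to 24 h from a stable transgenic line that makes CG12299 with GFP fused to the C-terminal end, and an antibody to GFP pulled down the chromatin. All of it is 1 group, in 2 biological replicates, so no condition is compared with another. Peaks come from whole embryos, in which a site bound in few cells and a site bound weakly in all cells cannot be told apart.

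Actin polymerises into filaments that give cells their shape and, with myosin, contract muscle. Alpha and beta tubulin pair up to form microtubules, and the elongation factors deliver aminoacyl-tRNAs to the ribosome (eEF1alpha) and move it along the mRNA (eEF2). Flies keep several gene copies for most of these proteins: Act5C and Act42A make cytoplasmic actin in most cells, whereas Act57B and Act87E make muscle actin. betaTub60D is known for its use in the mesoderm, and eEF1alpha2 for its use later in development.

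The strongest summit beside Act5C, the summit at the alphaTub84B promoter, the pair of summits at the start of eEF2, and the strongest summit beside Act87E are shown because they span the range from the strongest site in this set to the best site of a tissue-limited copy. Each run is read from the release 6 assembly (RefSeq), 5′ to 3′ on the strand of the gene, and covers up to 50 bp on each side of the summit without annotated exons. Capitals mark words known from fly promoters, on either strand. TATAAA is the TATA box word and TAATTA a core bound by homeodomains. CACGTG is an E-box. GAGAG, or CTCTC when read from the other strand, is the core word of the GAGA factor. TCGATA, or TATCGA when read from the other strand, is a word bound by BEAF-32.
Act5C, chrX:5900131-5900231, plus strand: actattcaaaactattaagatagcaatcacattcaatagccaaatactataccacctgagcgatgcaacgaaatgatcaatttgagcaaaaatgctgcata
alphaTub84B, chr3R:7086504-7086598, plus strand: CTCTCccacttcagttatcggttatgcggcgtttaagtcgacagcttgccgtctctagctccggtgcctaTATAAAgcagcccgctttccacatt
eEF2, upstream summit, chr2L:21682170-21682270, minus strand: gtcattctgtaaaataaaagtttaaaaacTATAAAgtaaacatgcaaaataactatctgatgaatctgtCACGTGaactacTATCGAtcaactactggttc
eEF2, intronic summit, chr2L:21681968-21682038, minus strand: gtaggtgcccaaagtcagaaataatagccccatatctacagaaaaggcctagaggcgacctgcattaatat
Act87E, chr3R:13425538-13425638, plus strand: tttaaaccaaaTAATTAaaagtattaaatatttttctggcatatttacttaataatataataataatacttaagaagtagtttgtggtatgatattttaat
In the alphaTub84B run the TATAAA word begins 25 bp upstream of the TSS, the usual place of a TATA box. In the upstream eEF2 run the same letters begin 77 bp before the TSS. The Act5C run and the intronic eEF2 run held none of the searched words.

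All coordinates are in dm6 (release 6), 1-based. The 4 deposited lists held 3672 thresholded peaks, 29999 pooled peaks, 30000 peaks of replicate 1 and 29999 of replicate 2. The strength of a peak is given by the signalValue, a score of the authors with a scale specific to its list, so signalValues are compared only within a list and the replicates are set side by side by rank, with rank 1 the strongest. The lists hold no read counts, and the depth behind them is unknown. The thresholded list ran from a signalValue of 106.98 to 2056.6 with a median of 154.78. All 10 genes had a pooled summit in range, as did 73.9% of 13968 protein-coding genes. Thresholded summits were found at 5 of the 10, 9 summits in all, where the share over protein-coding genes was 27.6% and over all annotated genes 24.9%. All 5 were broad copies, leaving Act42A as the broad copy without a thresholded summit, and none of the 4 tissue-limited copies had a thresholded summit. The classes were drawn up with results of these data known and genes are not replicates, so no test was made of this split.

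**Figure D1:**
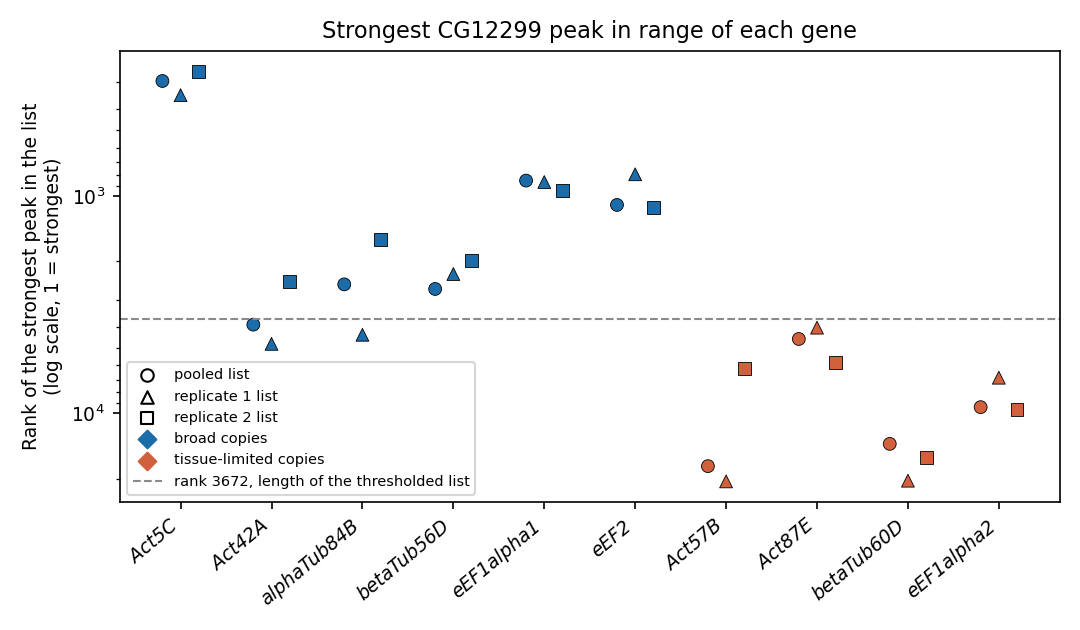
Rank of the strongest peak in range of each gene (y, log scale, 1 at the top) in the pooled list (circles), replicate 1 (triangles) and replicate 2 (squares), with the 6 broad copies in blue left of the 4 tissue-limited copies in orange. The dashed line marks rank 3672, the length of the thresholded list. Act5C ranked highest in all 3 lists, and every tissue-limited copy lay below the line in all 3.

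Among the actin genes, Act5C stood highest. Act5C (X, 5900861 to 5905399, plus strand) has its strongest peak from 5900094 to 5900283, with a pooled signalValue of 398 and rank 296. The same site had a signalValue of 195 and rank 344 in replicate 1 and a signalValue of 204 and rank 267 in replicate 2, where the medians of the lists were 27.8 and 21.1. Both replicates thus placed it near the top, with summits 22 bp apart. This summit lay 680 bp upstream of the first Act5C TSS, between Act5C and lncRNA:CR45668, a non-coding RNA gene read in the opposite direction whose TSS lay nearer, at 192 bp. A second thresholded peak of 116, from 5899368 to 5899751, lay 1301 bp upstream of Act5C in an exon of that non-coding RNA gene, at rank 2326 in replicate 1 and 4618 in replicate 2. The strongest peak nearest to an Act5C start itself, 118 bp upstream of the second TSS in an intron, reached 84.6 and was not in the thresholded list. Act5C had 8 pooled summits in range in all, the most of the 10 genes, against a median of 1 over protein-coding genes. Only 3 of the 8 had an Act5C TSS nearest, and the peak from 5900194 to 5900577 overlaps the strongest one. The weakest of the 8 reached 30.7. Act5C is 4539 bp long, beside a median of 2164.5 bp over protein-coding genes, and these counts were not matched for length.

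Act42A, the other cytoplasmic actin gene, fell just short of the thresholded list. Its strongest pooled peak in range, from 6017402 to 6017785 on 2R, reached 103, which is 3.79 below the lowest thresholded signalValue, and ranked 3909. That summit lay 1905 bp upstream of Act42A and 145 bp from Pngl, which encodes a peptide N-glycanase. The replicates placed different peaks first, one at 225 bp upstream of Act42A with rank 4791 in replicate 1, and another at 1977 bp upstream with rank 2482 in replicate 2. The peak at the Act42A start itself, 37 bp downstream of the TSS in the 5' UTR, reached 61.4.

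The muscle actin genes had weaker peaks, and they differed between themselves. Act87E (3R, 13425983 to 13428375, plus strand) had a pooled peak of 94.5 from 13425396 to 13425779, at rank 4551. It ranked 4036 in replicate 1 and 5817 in replicate 2, and its summit lay 395 bp upstream of the TSS, in the run of A and T shown above. Act57B (2R, 20944021 to 20946431, plus strand) had a pooled peak of 40.5 at rank 17499, 237 bp upstream of its TSS. In replicate 2 its promoter peak, 98 bp upstream, ranked 6211, but replicate 1 had no peak overlapping the promoter peaks of the pooled list. The best peak of replicate 1 in range of Act57B ranked 20565 and lay in the 3' UTR. Near the Act57B start, then, the pooled peaks have a counterpart in replicate 2 and none in replicate 1.

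The broad tubulin copies carried moderate peaks at their starts. alphaTub84B (3R, 7086599 to 7088839, plus strand) has a single TSS, and its thresholded peak from 7086362 to 7086745 had its summit 45 bp upstream, with a signalValue of 130 and rank 2552. The replicates differed in how high they placed this site, at rank 4352 in replicate 1 and 1582 in replicate 2. The nearest start on the opposite strand, that of the uridylyltransferase gene Tailor, lay 471 bp away. betaTub56D (2R, 19447319 to 19451600, minus strand) had a thresholded peak of 127 at rank 2679. Its summit lay 157 bp downstream of the TSS in coding sequence, at rank 2287 in replicate 1 and 4299 in replicate 2. A second thresholded peak of 117 lay 861 bp upstream of betaTub56D and 43 bp from CG7744, which is read in the opposite direction. Replicate 2 instead ranked highest, at 1980, a peak 333 bp upstream of the internal betaTub56D TSS, where the overlapping peak of replicate 1 ranked 14881. The tissue-limited betaTub60D (2R, 24305881 to 24313099, plus strand) had a single pooled peak, 22 bp downstream of its TSS in the 5' UTR, with a signalValue of 46.9 and rank 13819. It ranked 20413 in replicate 1 and 16007 in replicate 2.

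eEF1alpha1 and eEF2 held the strongest peaks after Act5C, and eEF1alpha2 a weaker one than all 6 broad copies. eEF2 (2L, 21677913 to 21682164, minus strand) has a pair of TSSs close together and a pair of thresholded summits astride them. The higher one, with a signalValue of 203 and rank 1100, spanned 21681826 to 21682209 with its summit in an intron 98 bp downstream of the nearer TSS. The lower one had a signalValue of 107 and rank 3670 of the 3672 thresholded peaks, and its summit lay 56 bp upstream of the outer TSS. Replicate 1 resolved the same pair of summits, at ranks 795 and 3599, whereas replicate 2 had a single summit between them, 9 bp downstream of a TSS, at rank 1129. No start of another gene on the opposite strand lay within 1000 bp of either thresholded summit.

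eEF1alpha1 (2R, 11891135 to 11895762, plus strand) carried a pair of thresholded peaks that it shares in position with ERp60, a gene for a protein disulfide isomerase of the endoplasmic reticulum read in the opposite direction. The higher, with a signalValue of 235 and rank 850, lay 1213 bp upstream of eEF1alpha1 in an intron of ERp60. The other, of 211 at rank 1021, lay between the divergent starts, 88 bp upstream of eEF1alpha1 and 68 bp from the TSS of ERp60. The replicates placed the far peak at ranks 863 and 1042 and the peak between the starts at ranks 1298 and 941, so they put them in opposite orders. Within the gene, the strongest peak nearest to an eEF1alpha1 TSS, 13 bp upstream of an internal start, reached 78.2. The copy eEF1alpha2 (3R, 31738468 to 31743306, plus strand) had no pooled peak nearest to its own start. Its strongest peak in range, of 60.4 at rank 9368, lay 1407 bp upstream, in the 5' UTR of CG11563 and 26 bp from that gene's TSS, with the start of CstF50, which encodes a cleavage stimulation factor subunit of mRNA 3' end formation, 98 bp away on the opposite strand. In each replicate a weak peak near the eEF1alpha2 start was called, 189 bp upstream at rank 18312 in replicate 1 and 82 bp downstream at rank 24325 in replicate 2.

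**Figure D2:**
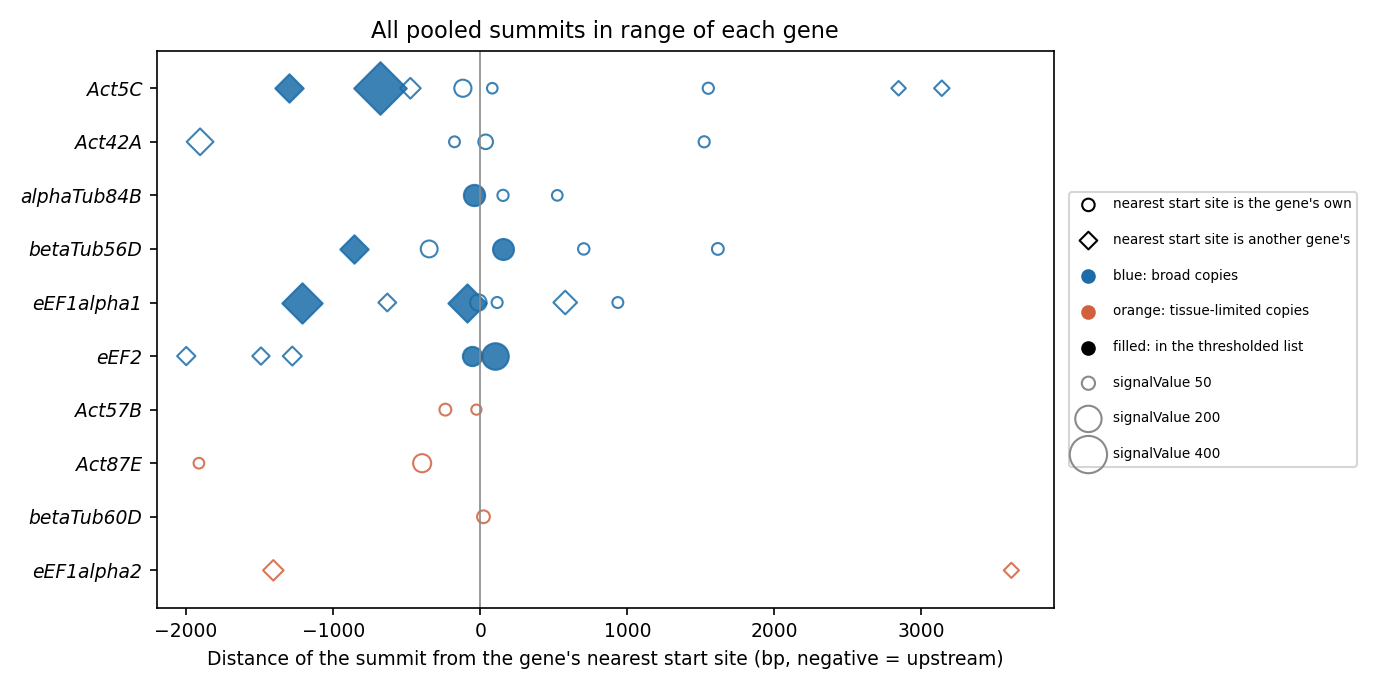
Position of each of the 39 pooled summits in range of the 10 genes (x, bp from the gene's nearest TSS, negative upstream), with marker area proportional to signalValue, broad copies in blue above tissue-limited copies in orange. Filled markers are the 9 thresholded summits, circles have the gene's own TSS nearest and diamonds another gene's. The largest markers, at Act5C and eEF1alpha1, are diamonds.

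Set in order of the strongest pooled peak, the genes ran Act5C, eEF1alpha1, eEF2, alphaTub84B, betaTub56D, Act42A, Act87E, eEF1alpha2, betaTub60D and Act57B. With 2 replicates, the spread is the range between the ranks, in replicates 1 and 2, of the best-ranked peak that overlaps the strongest pooled peak. Act5C (344 and 267) stood clear of every other member by this measure. The ranges of eEF1alpha1 (863 and 1042) and eEF2 (795 and 1129) overlapped, so their order is not set by these data. Those of alphaTub84B (4352 and 1582), betaTub56D (2287 and 4299), Act42A (6193 and 2482, the replicate 1 summit 190 bp away) and Act87E (4036 and 5817) all overlapped each other. A tissue-limited copy, Act87E, is thus not separated from these 3 broad copies. The range of eEF1alpha2 (6857 and 9612, the replicate 2 summit 263 bp away) lay apart from that of betaTub60D (20413 and 16007). Its separation from Act42A depends on which overlapping peak is taken. Another overlapping replicate 1 peak at Act42A, with its summit at 6017603 beside the pooled summit at 6017594, ranked 7418. With that rank the ranges of Act42A and eEF1alpha2 overlap. At eEF1alpha2 the replicate 2 peak with its summit at 31737064, beside the pooled summit at 31737061, ranked 14685. Act57B has no range, since replicate 1 had no overlapping peak and replicate 2 ranked its own at 6211.

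Taking in each list the strongest peak in range, which may be a different peak in each, broad and tissue-limited copies did not overlap in the pooled list, with signalValues of 103 to 398 at the 6 broad copies and of 40.5 to 94.5 at the 4 tissue-limited copies. They did not overlap in replicate 2 either, with ranks of 267 to 2482 at broad copies and 5817 to 16007 at tissue-limited copies. In replicate 1 they did, with ranks of 344 to 4791 at broad copies and 4036 to 20565 at tissue-limited copies, since Act87E ranked above alphaTub84B and Act42A. The broad copies were 1780 to 4628 bp long (median 4267) with 1 to 4 TSSs, and the tissue-limited copies 2393 to 7219 bp (median 3625) with 1 or 2 TSSs. The median length over protein-coding genes was 2164.5 bp, below the median of both classes, and the shares over protein-coding genes were not matched for length. The part of gene length and number of TSSs in the split was not tested. Broad copies had 32 pooled summits in range and tissue-limited copies 7. A pair of thresholded summits was found at 4 of the 6 broad copies, where 6.73% of protein-coding genes had 2 or more. Only at eEF2 was the gene's own TSS nearest to both summits. The peaks of that pair overlap, and replicate 2 had a single summit there.

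**Figure D3:**
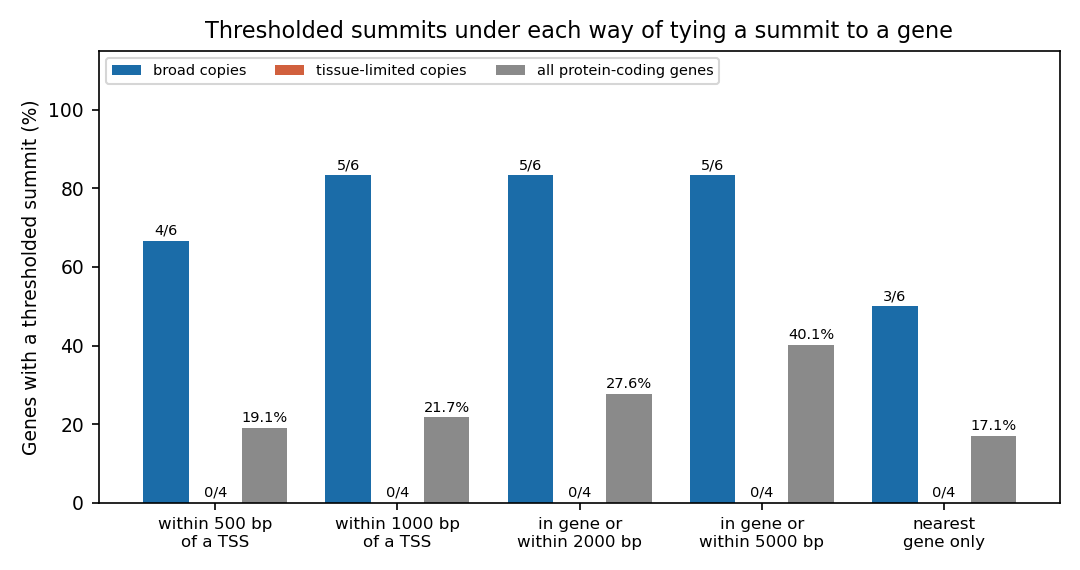
Share of genes with a thresholded summit (y, %) when summits are tied to genes by each of 5 rules, for the 6 broad copies (blue), the 4 tissue-limited copies (orange, at 0 throughout) and all protein-coding genes (grey). Labels give genes with a summit of genes in the class, or the percentage. The broad copies had 5 of 6 by the 2000 bp range and 3 of 6 when each summit counted only for the gene with the nearest TSS.

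The count depends on how summits are tied to genes. Within 500 bp of a TSS, 4 of 6 broad copies had a thresholded summit, beside 19.1% of protein-coding genes. Within 1000 bp of a TSS it was 5 of 6, beside 21.7%, and with a range of 5000 bp it was again 5 of 6, beside 40.1%. Any overlap of the peak interval also gave 5 of 6, beside 28.5%. With as many of the strongest peaks of 1 replicate as the thresholded list holds, replicate 1 gave 4 of 6 broad copies, without alphaTub84B and Act42A, beside 27.7% of protein-coding genes. Replicate 2 gave 6 of 6, beside 27.1%. With the stronger 50% of the thresholded list 3 of 6 were left, beside 16.1%. By each of these rules none of the 4 tissue-limited copies was counted. For the ranges of 500 and 1000 bp and the stronger 50% this had to be so, since they only remove summits from the main count.

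Several summits lie closer to a neighbouring start than to the start of the member. Of the 9 thresholded summits, 4 had the TSS of the member itself as the nearest, namely both of eEF2 and those of alphaTub84B and betaTub56D, and 5 lay nearer to lncRNA:CR45668, ERp60 or CG7744. When each summit counted only for the gene with the nearest TSS, 3 of 6 broad copies and 0 of 4 tissue-limited copies had a thresholded summit, beside 17.1% of protein-coding genes. On the same footing the strongest pooled signalValue was 203 for eEF2, 130 for alphaTub84B, 127 for betaTub56D, 84.6 for Act5C, 78.2 for eEF1alpha1 and 61.4 for Act42A among broad copies. Among tissue-limited copies it was 94.5 for Act87E, 46.9 for betaTub60D and 40.5 for Act57B. The classes then overlapped, as Act87E exceeded Act5C, eEF1alpha1 and Act42A. Which gene, if any, a summit between divergent starts acts on was not tested.

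Among protein-coding genes with a pooled summit, these genes spanned most of the order by strongest peak. Over the 10317 protein-coding genes with a pooled summit in range, the strongest had a median signalValue of 83.3 and a median rank of 5648. A stronger peak than that of Act5C was found at 4.21% of those genes, than that of eEF1alpha1 at 11.2% and than that of eEF2 at 13.6%. For alphaTub84B, betaTub56D and Act42A the shares were 28.5%, 29.7% and 38.8%. Of the tissue-limited copies, Act87E was exceeded by 43.3%, eEF1alpha2 by 65.5%, betaTub60D by 77.0% and Act57B by 83.7%. The pooled list ran down to a -log10 q-value of 0.276, beside a minimum of 3.01 in the thresholded list. The strongest pooled peaks of betaTub60D and Act57B, at 0.826 and 0.596, were weak calls, and binding there is not established. The 3 protein-coding genes most like Act5C in the ranks of their strongest peaks, among 9103 genes with a peak in the pooled and both replicate lists, were trh (ranks 300, 352 and 262 in the pooled, replicate 1 and replicate 2 lists), and pont and Sirt6, which share a peak (285, 356 and 271). This likeness covers rank in 2 replicates and their pool only.

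**Figure D4:**
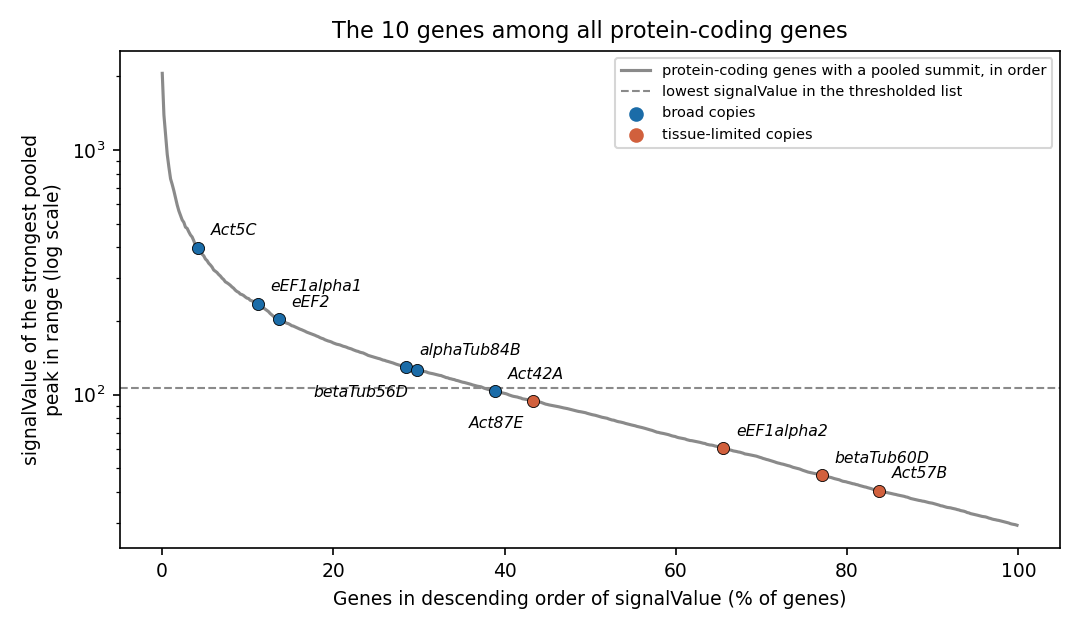
Protein-coding genes in descending order of the signalValue of their strongest pooled peak in range (y, log scale), with the 10 genes marked (broad copies blue, tissue-limited copies orange). The dashed line is the lowest signalValue of the thresholded list, 106.98. Act5C lies at 4.21% of the order and Act57B at 83.7%, and Act42A lies just under the dashed line.

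The sites at these genes varied in base composition. Within 50 bp of the strongest pooled summit, G and C made up 33.7% at Act5C and Act42A, 36.6% at eEF1alpha1, 43.6% at eEF2, 45.5% at betaTub56D and 49.5% at alphaTub84B among broad copies. Among tissue-limited copies they made up 15.8% at Act87E, 41.6% at eEF1alpha2, 45.5% at Act57B and 49.5% at betaTub60D. The mean over the 10 was 39.5% (SD 10.2 over genes), beside 34.1% over all 3672 thresholded summits and 41.3% over 25545 pooled summits that overlap no thresholded peak. The Act87E site was poorer in G and C than all but 0.9% of thresholded summits, although it did not pass the threshold itself. The alphaTub84B site was richer in them than 91.6% of thresholded summits, although it did pass. Over these 10 genes the order by base composition differed from the order by peak strength.

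**Figure D5:**
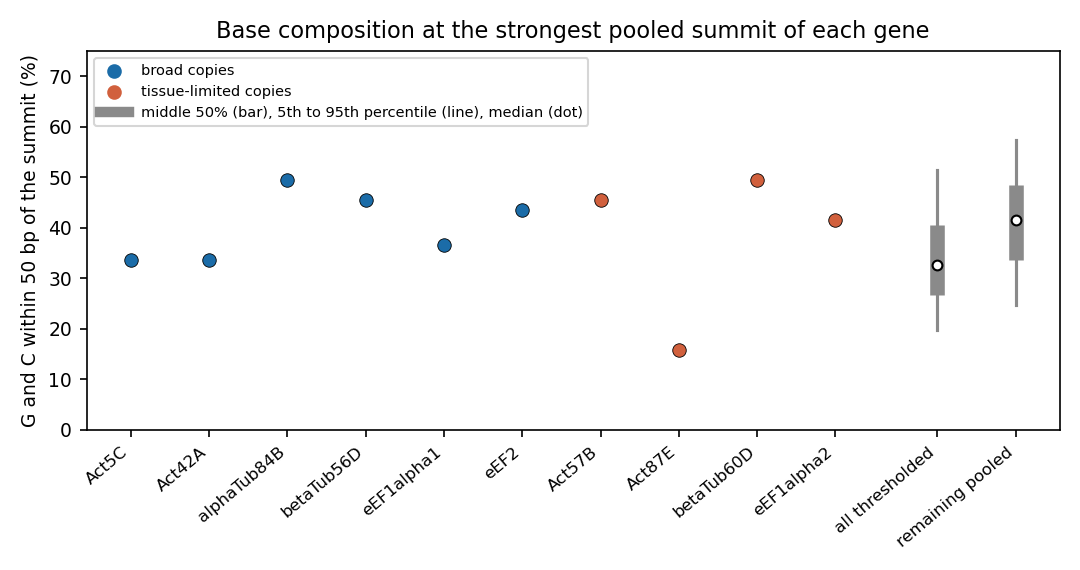
G and C content within 50 bp of the strongest pooled summit of each gene (points, y in %), with broad copies in blue left of tissue-limited copies in orange, and at the right the distribution over all thresholded and all remaining pooled summits (dot, median; bar, middle 50%; line, 5th to 95th percentile). Act87E, at 15.8%, lies below the line of both distributions.

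At least 1 of 7 searched words lay within 50 bp of 6 of the 10 strongest summits, the same share as over all thresholded summits (2204 of 3672), and 46.7% of remaining pooled summits held one. TATAAA, the TATA box, lay within 50 bp at alphaTub84B and Act42A (2 of the 10, beside 23.4% of thresholded and 13.3% of remaining pooled summits). GAGAG, the core of the site of the GAGA factor, lay at alphaTub84B, eEF1alpha1 and Act57B (3 of the 10, beside 10.9% and 12.7%). CACGTG, an E-box, lay at eEF1alpha2 (1 of the 10, beside 0.871% and 1.29%). TAATTA, the homeodomain core, lay at Act87E (1 of the 10, beside 10.7% and 6.53%). A run of 6 A, AAAAAA, lay at Act42A (1 of the 10, beside 26.4% and 19.8%). TATCGATA, the word of the DNA replication-related element factor Dref, was at none of the 10, beside 2.02% of thresholded and 0.818% of remaining pooled summits. The BEAF-32 word TCGATA, which overlaps it, was also at none of the 10, beside 8.01% and 5.09%, and was present at the second, upstream eEF2 summit. A match of letters shows no binding, and its absence says only that these letters are not in the window.

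At the start sites themselves, the 10 genes have 18 annotated TSSs. TATAAA lay 20 to 40 bp upstream of a TSS of alphaTub84B, betaTub56D, Act57B and Act87E, on the strand of the gene. That is 4 of the 18 TSSs, where 6.13% of 19607 TSSs of protein-coding genes had it. The initiator word TCAGT lay within 10 bp of a TSS of Act5C, betaTub60D and eEF1alpha2 (3 of the 18 TSSs, beside 13.1%). CTTTT, the core of the polypyrimidine initiator, lay within 10 bp of the TSS of Act42A and of no other member (1 of the 18 TSSs, beside 3.35%). GAGAG lay within 300 bp upstream of 11 of the 18 TSSs, beside 32.5%, at copies of both classes. TATCGATA lay within 300 bp upstream of 0 of the 18, beside 7.5%. The TATA word was thus present at copies of both classes, and it was not found in that window at Act5C, Act42A, eEF1alpha1, eEF2, betaTub60D or eEF1alpha2.

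Copies of 1 family resemble each other, which bears on where reads can be placed. The coding sequences of the 4 actin genes, of 1128 bp each, were 84.0% to 91.8% identical in ungapped pairs. Of the 39 pooled summits, 4 lay in coding sequence and 18 outside the gene, so few lie in the sequence compared here. The window 50 bp to each side of each of 14 summits (the strongest pooled and all thresholded ones) occurred once in the assembly, the betaTub56D summit in coding sequence included. The sources used here do not say how reads that match several copies were handled.

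Further genes of the same families were looked up for comparison. Of 9 further actin and tubulin genes, gammaTub23C and betaTub97EF had a thresholded summit (22.2%, beside 27.6% of protein-coding genes). The peak of gammaTub23C, which encodes a gamma tubulin of the centrosome, reached 248 at 143 bp upstream, and that of betaTub97EF 206 at 816 bp downstream. Act79B, alphaTub84D, alphaTub85E and betaTub85D, the last a testis tubulin, had no pooled summit in range, and Act88F, alphaTub67C and gammaTub37C had pooled peaks of 50.98, 37.1 and 74.5. Of 9 further elongation factor genes, cytosolic and mitochondrial, only eEF1gamma had a thresholded summit (11.1%), of 289 at 5 bp downstream of its TSS. Its partners in the exchange factor, eEF1beta and eEF1delta, had pooled peaks of 87.8 and 69.6, and eEF5 had 93.4.

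Of 30 genes whose products act on actin filaments, 20 had a thresholded summit (66.7%, beside 27.6% of protein-coding genes). Within 500 bp of a TSS they had 15 of 30, beside 19.1% of protein-coding genes. The strongest were at tmod, a filament capping gene, with 334, tsr, which encodes cofilin, with 268, sqh, a myosin light chain gene, with 267, and sn, which encodes fascin, with 226. These summits lay 1446, 1457, 127 and 2878 bp downstream of the gene's nearest TSS, in that order. At several of the 20 genes the TSS nearest to the strongest summit was another gene's, and no count by nearest gene was made for this list. The median strongest pooled peak over this list was 138, beside 83.3 over protein-coding genes. Of 30 genes for microtubule proteins and tubulin assembly, 10 had a thresholded summit (33.3%), close to that background, and 8 had one within 500 bp of a TSS. The strongest were at Grip91, of the gamma tubulin complex, with 514, Dhc64C, the dynein heavy chain, with 346, chb, a microtubule plus-end gene, with 336, and Map205, a microtubule-associated protein gene, with 244. The Grip91 summit lay 5206 bp from its TSS and nearer to CG11151. No test was made of these shares.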

How the data were processed

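ChIP-seq peak lists for GFP-tagged CG12299 were read for 2 biological replicates of whole embryos. Per the deposited manifests, the authors called each replicate list and the pooled list on dm6, with 1 control alignment, and derived from these the list of peaks that pass an irreproducible discovery rate threshold. The control was not analysed here. Aligner and peak caller: not given in these sources. The deposited signalValue is the authors' peak score, and the deposited -log10 q-value, tied at its top value for 1760 pooled peaks, served only as an alternative ranking. A repeated position was counted once. Depth is unknown, which leaves the precision of ranks unknown.

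Summits were tied to genes with the Ensembl release 115 annotation, without transposable elements (18277 genes, 24111 TSSs), and sequence was read from the release 6 assembly, whose arms contain all peak ends. Words were sought in either orientation, up to 50 bp from a summit. The assignment of summits was checked on simulated data. No test was run: genes are not replicates, so counts stand beside the same count over all genes. Members, classes and lists were chosen with earlier results of these data known. Named are all members, the gene with the nearest TSS to a strongest thresholded summit, an opposite-strand TSS within 1000 bp, thresholded genes of short lists, the 4 strongest of longer lists, and the 3 genes most like Act5C in rank. CG7744, Pngl, CG11563, CstF50, CG11151 and the genes of short lists without a thresholded summit were named after their values were seen. Other gene symbols were matched through RefSeq synonyms. Alternatives covered ranges, overlap, threshold, ranking, windows and each replicate alone. Python 3.11.15 with numpy 2.4.6, pandas 2.3.3 and matplotlib 3.10.9 was used.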

Additional observations from a re-analysis of the deposited data

How the results depend on the processing

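The count of members with a thresholded summit, 5 of 10 and all of them broad copies, fell to 3 when a summit counted only for the gene with the nearest TSS and to 3 with the stronger 50% of the thresholded list, with the same counts among broad copies. With as many of the strongest peaks of a single replicate it ranged from 4 to 6 members, again all broad: leaving out replicate 2 removed alphaTub84B, and leaving out replicate 1 added Act42A. The tissue-limited copies stayed at 0 under all 8 alternatives, but not all of these could have changed that count. The shorter ranges, the nearest TSS rule and the stronger 50% only remove summits from the main count, so they could give nothing but 0. The wider range, the overlap of intervals and each replicate alone could have added a tissue-limited copy, and none did. All 9 thresholded member peaks were overlapped in both replicate lists, from which that list was itself selected, and 5 were when each replicate was limited to its 3672 strongest peaks. With summits within 100 bp, or with a reciprocal overlap of 50%, 8 of the 9 were matched. Both eEF2 peaks were overlapped by the same replicate 2 peak, at rank 1129. The median rank of the strongest peak, 3294 over the 10 genes, ranged from 2231 to 4194 with single replicates. Of the 78 other genes, 33 had a thresholded summit, beside 27.6% of protein-coding genes, and 20 of the 33 were actin regulators. Replicate 1 alone gave 34, beside 27.7%, and replicate 2 alone gave 35, beside 27.1%. The stronger 50% gave 19, beside 16.1%. The causes were not tested. No paired analysis was possible because the series holds 1 group.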
